A study of Mus musculus with 6 samples.

Results

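The genes described here are p53's regulators and relatives and a set of genes that p53 is known to switch on, in a mouse lung tumour line with and without a hairpin against MKK4. Of 35 listed genes, 32 were measured by at least 1 probe set annotated to them alone, out of 18193 genes measured in all, and Trp53, Bax and Gdf15 were not analysed here. A gene with more than 1 such probe set was represented by its brightest, judged by the mean over the 6 arrays. The line, 393P, was grown from a primary lung tumour of a mouse with the p53R172H∆g/+ genotype, so both groups come from cells with a germline allele of mutant p53. Whether the line keeps the normal p53 allele is not given in the sources used here, which limits it as a model of p53 activity, as does its origin from a single mouse tumour population. The control group (393P-scr) carried a scrambled control vector and the MKK4 shRNA group (393P-shZ) a vector expressing a short hairpin RNA against MKK4. Each group had 3 arrays, called triplicate cultures in the labels, so a p-value here speaks of differences among cultures from a single population for each vector.

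The p53 protein is a transcription factor that is held at a low level by the ubiquitin ligase Mdm2 and its partner Mdm4, and that is stabilised after DNA damage or other stress. It then binds pairs of half-sites in DNA and raises genes of cell cycle arrest, DNA repair, apoptosis and metabolism, and also Mdm2 itself, which closes a feedback loop. MKK4 activates the kinases JNK and p38, both of which are known to phosphorylate p53. In lung tumours, loss or mutation of p53 is known to go with a more malignant course.

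Values are intensities on a linear scale, in the arbitrary units deposited, and the number of arrays limits their precision. Changes are differences of log2(intensity + 16), shRNA minus control, after quantile normalization, which understates the change of dim genes. A gene is called changed when its limma p-value, adjusted by Benjamini-Hochberg over all 18193 genes, is below 0.05. The 6 arrays had medians of 92 to 95.76 units and correlated at r = 0.9911 to 0.9962 across genes. The targeted transcript, Map2k4, gave 700.3, 638 and 597 units with the control vector and 240.1, 295 and 287 with the shRNA, a log2 change of -1.21 (SE 0.079, limma adjusted p = 0.000127). An exact two-sided permutation test of Map2k4 gave p = 0.1, the smallest that 3 arrays against 3 allow. The epithelial markers Krt8, Krt18, Cdh1 and Epcam were bright in both groups, while the lung lineage markers Nkx2-1 and Scgb1a1 lay at the level of the bacterial trpnX control probe sets, which reached 39.5 units at most. Another lung lineage marker, Sftpc, was above them on every array, at 84.3, 73.8 and 69.3 units with the control vector and 61.7, 70.05 and 53.9 with the shRNA, with overlap between the groups. The 9 epithelial markers summed to 44164 to 44609 units on the control arrays and 43792 to 44816 on the shRNA arrays, but Epcam fell by 0.35 and Cdh1 by 0.14 while Krt19 rose by 0.23 on the log2 scale, and their part in the results below was not tested. The 6 leukocyte markers measured summed to 906 to 999 units on the control arrays and 828 to 1041 on the shRNA arrays, most of it from the Csf1r probe set, with Lyz2, Cd3e and Itgam no brighter than the trpnX controls. Endothelial markers summed to 571 to 713 and 517 to 669 units and fibroblast markers to 460.4 to 509 and 441 to 517 units, and no marker of these 3 cell types was called.

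The MKK4 shRNA was accompanied by small changes in 6 of the 32 p53 pathway genes, 5 higher and 1 lower. Plk2, Tob1, Zmat3, Aen and Polk rose by 0.20 to 0.28 on the log2 scale, and Ei24 fell by 0.28. The largest difference on a brightest probe set among the 32, that of Dcxr, was 1.23-fold (values with 16 added) and was not called. The called share was 18.8% of the genes, beside 11.8% of all genes tested, 6.37% of all genes being called higher and 5.39% lower. Among the 14009 genes brighter than the trpnX controls, 15% were called. Of the 32, 4 were not that bright and none of these was called, so 18.8% and 15% are not shares of like sets. On the normalized values, groups did not overlap in 9 of the 32 genes, 7 higher and 2 lower, which is 28.1% beside 28.5% of all genes. The median log2 change was 0.04 for the 32 genes and -0.01 for all genes, and the median size of change was 0.10 in both. The share with separate groups was thus near the background, and the called share rests on 6 genes, 2 of them, Aen and Polk, at the threshold. In RNA from whole cultures, fewer cells with a transcript and less of it per cell cannot be told apart. At an unadjusted p of 0.05, 8 of the 32 passed (25%), beside 24.1% of all genes.

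**Figure D1:**
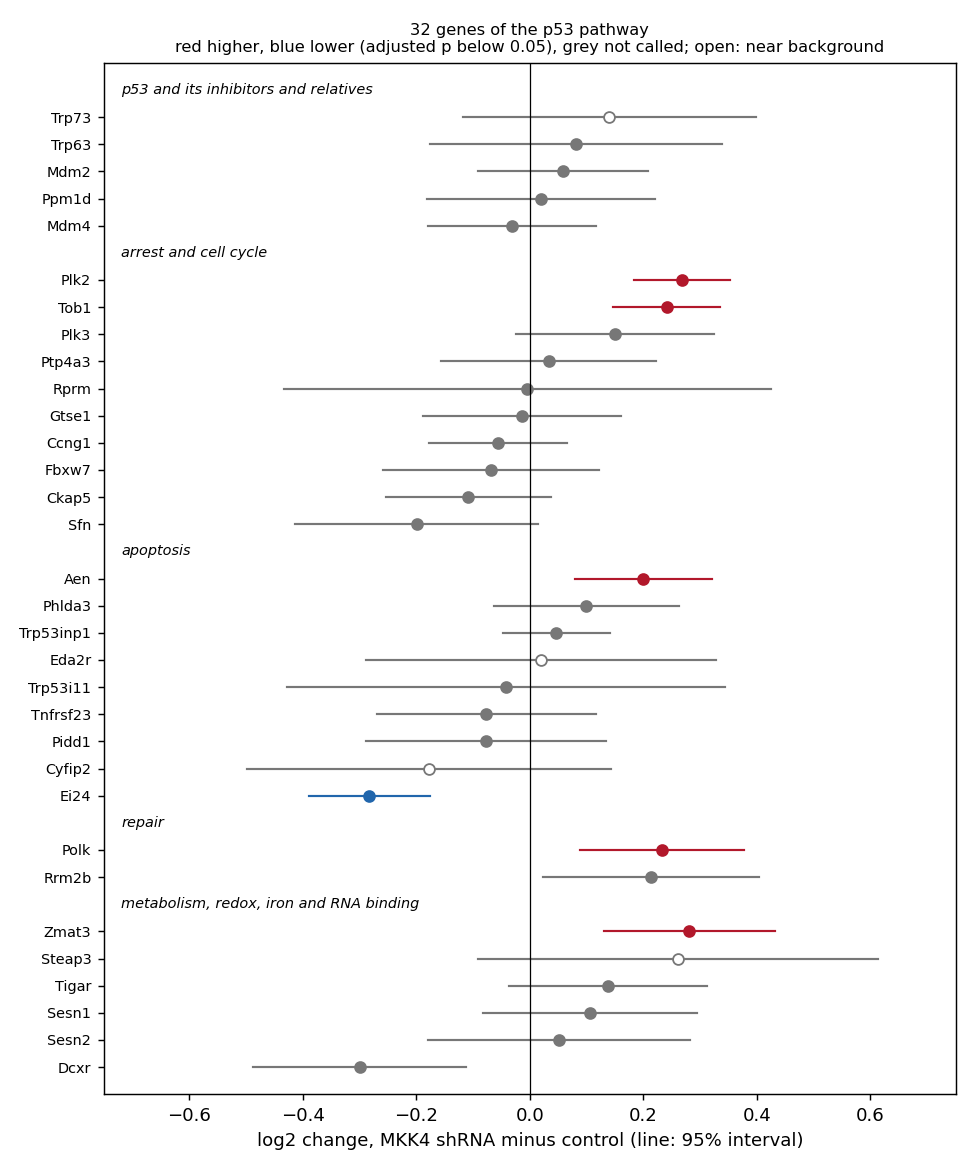
Log2 change (x axis, MKK4 shRNA minus control) of each of 32 p53 pathway genes (y axis, grouped by role), with points for the limma estimate from 3 arrays per group and lines for its 95% interval. Red genes were called higher (5), the blue gene lower (Ei24), and grey genes were not called; open circles mark 4 genes no brighter than the trpnX controls in either group.

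Mdm2, Mdm4 and Ppm1d, the p53 inhibitors of this list, were measured without a called change. Mdm2, the ubiquitin ligase that marks p53 for degradation and is itself a p53 target, gave 835, 862 and 791 units on the control arrays and 902, 829 and 889.5 on the shRNA arrays. The groups overlapped, and the log2 change was 0.06 with a 95% interval of -0.09 to 0.21 (limma adjusted p = 0.67). An exact two-sided permutation test of Mdm2 gave p = 0.6. A dimmer Mdm2 probe set read 259 ± 31.2 and 275 ± 15.8 units (SD, n = 3) in the 2 groups, again with overlap, and a further one lay within background.

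Mdm4, which binds p53 and blocks its activation domain, gave 622, 659 and 555 units with the control vector and 598, 605 and 610.3 with the shRNA. The shRNA values all lay within the control range, and the log2 change was -0.03 with an interval of -0.18 to 0.12 (limma adjusted p = 0.832). The other 3 Mdm4 probe sets gave 0.06 to 0.15, none of them called, so the sign of its change differed between probe sets. Ppm1d, the phosphatase WIP1 that reverses p53 activation, gave 231 ± 7.25 and 237 ± 23.3 units (SD, n = 3), which is a change of 0.02. The upper end of the Mdm2 interval reaches the smallest rise among the called genes, and that of Mdm4 does not.

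Both p53 relatives were dim. Trp63, which marks basal epithelial cells, was measured at 44.6 ± 2.48 units with the control vector and 48.1 ± 5.90 with the shRNA (SD, n = 3), just above the trpnX controls. Trp73 lay below them in both groups, at 19.9 ± 2.74 and 23.5 ± 2.90 units (SD, n = 3). At this brightness a change in either could not be measured well.

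Among genes of arrest and the cell cycle, 2 of 10 were called (20%, beside 11.8% of all genes), both higher. The groups by role are too small for their shares to be told from that of all genes. Plk2, a polo-like kinase induced by p53 after damage, gave 1612, 1627 and 1645.5 units with the control vector and 1958, 1963 and 2011 with the shRNA. All shRNA arrays lay above all control arrays. The means were 1628 ± 16.7 and 1978 ± 29.3 units (SD, n = 3), and the log2 change was 0.27 (SE 0.036, limma adjusted p = 0.00307). Averaging Plk2's probe sets ended the call (0.03, adjusted p = 0.882, the highest of 16 settings), since its other probe set lay within background, at 32.5 and 26.1 units.

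Tob1, an antiproliferative protein that recruits the machinery of mRNA deadenylation, gave 1426, 1295 and 1386 units on the control arrays and 1531, 1723 and 1635 on the shRNA arrays. The groups did not overlap, and the log2 change was 0.24 with an SE of 0.041 (limma adjusted p = 0.00772). Its other probe set was dim and uneven, at 47.4, 60.9 and 63.5 units against 66.1, 51.6 and 5.67, and the mean of both probe sets reversed the sign of Tob1 to -0.17 (adjusted p = 0.752). Without a trend in the prior variance Tob1 did not pass either (0.0536).

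The other 8 genes of arrest and the cell cycle were not called. Plk3, a second polo-like kinase of the stress response, gave 150.1, 141 and 148 units against 160.0, 168 and 169.95. The groups did not overlap, but the log2 change of 0.15 (SE 0.075) had a limma adjusted p of 0.284. Sfn, the 14-3-3 sigma protein that holds cells before mitosis, gave 460.05, 414 and 443 units against 427, 354 and 370.2. Here 1 shRNA array lay within the control range, and the log2 change was -0.20 (limma adjusted p = 0.241), but without MKK4 shRNA replicate 1 Sfn passed the test at -0.30 (adjusted p = 0.0402, the lowest of 16 settings). Ccng1, cyclin G1, which is among the p53 targets found in most tissues, went from 967 ± 57.5 to 936 ± 91.4 units (SD, n = 3), and its other 2 probe sets gave 0.03 and 0.16. Gtse1, which moves p53 out of the nucleus, changed by -0.01, the phosphatase gene Ptp4a3 by 0.03, the ubiquitin ligase subunit gene Fbxw7 by -0.07 and the spindle gene Ckap5 by -0.11. Rprm, a mediator of arrest before mitosis, lay near background at 42.6 and 43.7 units.

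**Figure D2:**
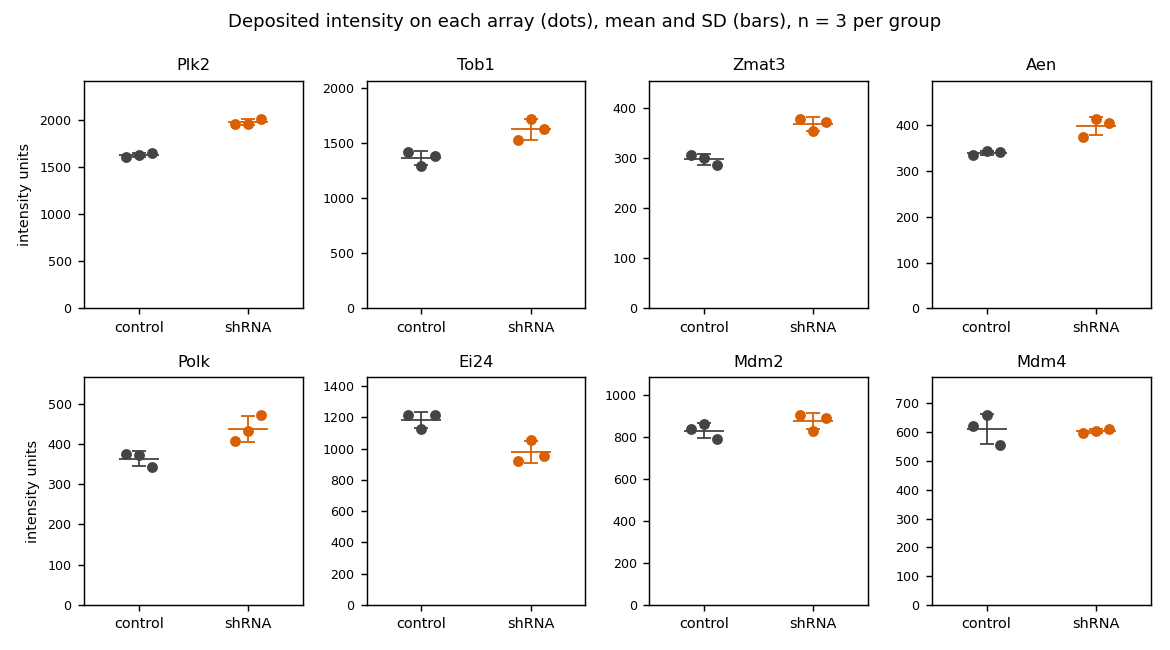
Deposited intensity (y axis, units, from 0) on each array of the control and MKK4 shRNA groups (x axis) for the 6 called genes and for Mdm2 and Mdm4, with dots for arrays and bars for the mean and SD of 3. The groups are apart in the 6 called genes, and overlap in Mdm2 and Mdm4.

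Of the 9 measured genes of apoptosis and death signalling, Aen was called higher and Ei24 lower (22.2%, beside 11.8% of all genes). Ei24, a membrane protein of the endoplasmic reticulum that p53 induces, gave 1213, 1125 and 1213 units on the control arrays and 922, 1058 and 951 on the shRNA arrays. Every shRNA array lay below every control array. The means were 1184 ± 51.0 and 977 ± 71.7 units (SD, n = 3), and the log2 change was -0.28 (SE 0.046, limma adjusted p = 0.00684). Ei24 was the one gene of the 32 that passed in all 16 alternative settings, with adjusted p up to 0.0433.

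Aen, a nuclease that p53 induces in apoptosis, gave 334, 344 and 341 units with the control vector and 375, 414 and 405 with the shRNA. The groups did not overlap, and the log2 change was 0.20 with an SE of 0.052 (limma adjusted p = 0.0454). This call was close to the threshold: it was lost when any 1 of the 6 arrays was left out, with adjusted p from 0.0577 without MKK4 shRNA replicate 1 to 0.136 without MKK4 shRNA replicate 2, and it held in 4 of 16 settings. The other Aen probe sets gave 0.22, 0.18 and -0.00, none of them called.

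The remaining death genes showed overlapping groups. Phlda3, which p53 induces to restrain AKT, went from 771 ± 37.5 to 837 ± 52.7 units (SD, n = 3). Trp53inp1, a nuclear cofactor of p53 in the choice of death genes, went from 1005 ± 29.7 to 1043 ± 70.1 units (SD, n = 3), and Pidd1, the scaffold that activates caspase-2, from 151 ± 8.27 to 144 ± 11.3 (SD, n = 3). The decoy receptor gene Tnfrsf23 changed by -0.08, with a paralogue, Tnfrsf22, that shares another probe set with it. Trp53i11 stayed near background at 50.3 and 48.1 units, and the receptor gene Eda2r lay within it, between 5.09 and 11.5 units on all arrays. Cyfip2, an actin regulator induced by p53, gave 40.8, 32.1 and 32.7 units against 31.8, 22.2 and 33.5, at the level of the trpnX controls, so no fold is given.

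Of the 2 repair genes of the list, Polk was called higher and Rrm2b was not called on its brightest probe set (11.8% of all genes were called). Polk, a translesion DNA polymerase, gave 376, 372 and 343 units with the control vector and 407, 433 and 471 with the shRNA. The groups did not overlap, and the log2 change was 0.23 with an SE of 0.062 (limma adjusted p = 0.0499). The Polk call lay at the threshold and held in 2 of 16 settings. It was lost when any 1 array was left out (0.0727 without MKK4 shRNA replicate 1 to 0.157 without control replicate 3), and after centring on chromosome medians (0.126). Its other probe set gave 0.06.

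Rrm2b, the ribonucleotide reductase subunit that supplies nucleotides for repair, gave 436, 424 and 358 units against 503, 466 and 464. Every shRNA array lay above every control array, but with a log2 change of 0.21 (SE 0.083) Rrm2b was not called on this probe set (limma adjusted p = 0.157). Its 3 dimmer probe sets moved further in the same direction. The brightest of these gave 155, 141 and 134 units against 193, 210.02 and 219, a log2 change of 0.48 that passed the test over all 34945 single-gene probe sets (limma adjusted p = 0.0136). The other 2 gave 0.48 and 0.55 and did not pass. Their control means, 34.8 and 25.6 units, lay below the highest trpnX control. With all probe sets averaged Rrm2b was called, at 0.43 (adjusted p = 0.0182, the lowest of 16 settings).

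Among the 6 measured genes of metabolism, redox, iron and RNA binding, Zmat3 was called higher (16.7%, beside 11.8% of all genes). Zmat3, an RNA-binding zinc finger protein and p53 target with a part in tumour suppression, gave 306, 299 and 286 units with the control vector and 378, 353 and 373 with the shRNA. The lowest shRNA array lay above the highest control array. The means were 297 ± 10.6 and 368 ± 13.1 units (SD, n = 3), and the log2 change was 0.28 (SE 0.065, limma adjusted p = 0.0286). The call was lost without control replicate 1 (0.0674), 2 (0.0817) or 3 (0.1) and without MKK4 shRNA replicate 1 (0.0739) or 3 (0.0954).

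Dcxr, a reductase of xylulose and dicarbonyls, gave 165, 162 and 159 units on the control arrays and 136, 122 and 130.4 on the shRNA arrays. The groups were clearly apart, yet the log2 change of -0.30, the largest of the 32 in size, missed the threshold (SE 0.082, limma adjusted p = 0.0524), and Dcxr passed in 4 of the 15 settings that include it. The sestrins, stress proteins that restrain mTORC1, were not called on their brightest probe sets, at 0.11 for Sesn1 and 0.05 for Sesn2. A second Sesn2 probe set gave 622, 546 and 574 units against 698, 709 and 699.5. On that probe set all shRNA arrays were above all control arrays, with a log2 change of 0.25 (limma adjusted p = 0.0357 over all single-gene probe sets). Tigar, a phosphatase that diverts sugar from glycolysis, changed by 0.14 and -0.08 on its brightest 2 probe sets. Steap3, an iron reductase, gave 23.65, 20.8 and 33.5 units against 37.4, 26.6 and 37.8, all below the highest trpnX control.

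**Figure D3:**
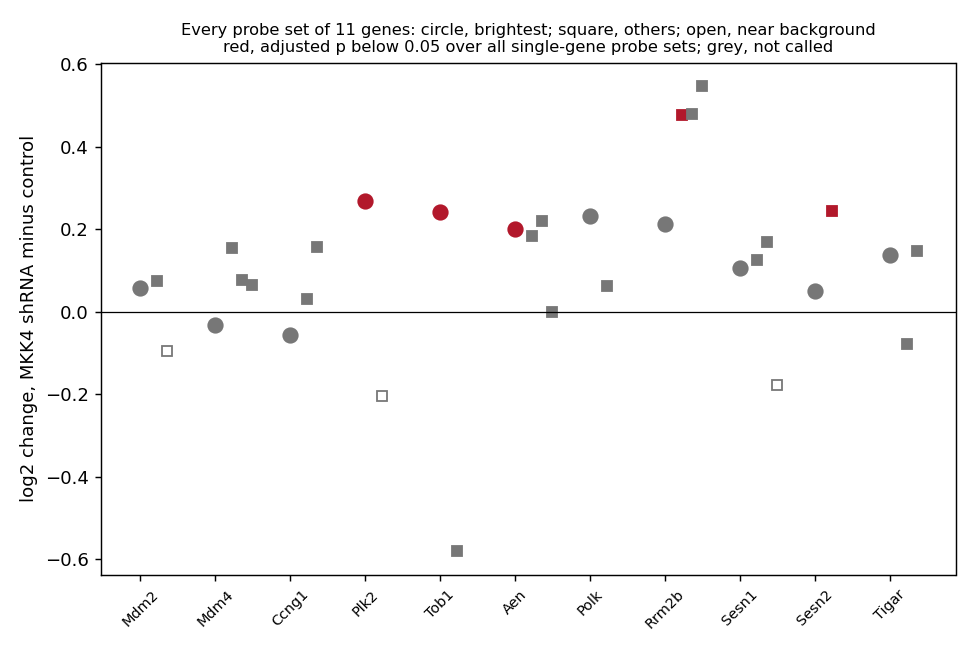
Log2 change (y axis, MKK4 shRNA minus control) of every probe set of 11 p53 pathway genes (x axis), with circles for the brightest probe set of a gene and squares for the others. Red marks probe sets called over all single-gene probe sets. The Rrm2b probe sets all lie above 0, at 0.21 to 0.55, while Tob1 has one at 0.24 and a dim one at -0.58.

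The 32 genes had 68 single-gene probe sets between them, of which 51 were brighter than the trpnX controls in at least 1 group. Tested among all 34945 such probe sets, of which 8.31% were called, 6 probe sets of p53 pathway genes were higher and 1 was lower. They belonged to Plk2, Tob1, Zmat3, Aen, Rrm2b, Sesn2 and Ei24, and Polk was not among them (adjusted p = 0.0595). Of the 14 genes with more than 1 probe set above background, 9 had the same sign on all of these. The same share over all genes was not computed, so this count has no background beside it.

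Promoter sequence from RefSeq (GRCm38.p6) was held for 27 of the 32 genes. The 250 bases before each annotated start were searched for 3 motifs. These were the p53 half-site consensus, a loose form of the AP-1 site with any middle base (TGANTCA) and the cyclic AMP response element TGACGTCA. ATF2 and Jun, downstream of JNK and p38, are known to bind the last of these. All 3 read the same on the opposite strand, so a match covers both strands, and the motifs were not required to be apart from each other. A perfect p53 half-site lay in the window of 7 of the 27 genes (25.9%), namely Aen, Ei24, Polk, Mdm2, Ccng1, Sesn1 and Ppm1d, beside 7.51% of the 14452 tested genes with an entry. A gene counted when the window of any of its annotated starts matched. Most of the list was chosen as known p53 targets, and the difference between these shares was not tested. Of the 5 called genes with an entry, 3 held one, and 1 of these, Ei24, fell while Aen and Polk rose. TGANTCA was found for Mdm4 only (3.7% of the 27, beside 6.7%) and TGACGTCA for Plk2 and Ppm1d (7.41%, beside 2.5%). Such matches describe letters in a window and do not show binding. The p53-responsive promoter of Mdm2 is known to lie inside its first intron, outside this window.

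The windows of 2 called genes that moved in opposite directions, and that of Mdm2 for comparison, are shown on the strand of the gene, with any half-site or TGACGTCA in capitals. That of Ei24 is the minus strand of chr9:36797335-36797584, that of Plk2 the plus strand of chr13:110394794-110395043, and that of Mdm2 the minus strand of chr10:117710759-117711008.
Ei24: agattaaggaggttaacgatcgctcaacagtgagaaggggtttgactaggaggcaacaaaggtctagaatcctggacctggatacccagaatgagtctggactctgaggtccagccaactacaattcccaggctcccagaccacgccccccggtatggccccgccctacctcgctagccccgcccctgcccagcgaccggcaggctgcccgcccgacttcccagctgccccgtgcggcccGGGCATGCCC
Plk2: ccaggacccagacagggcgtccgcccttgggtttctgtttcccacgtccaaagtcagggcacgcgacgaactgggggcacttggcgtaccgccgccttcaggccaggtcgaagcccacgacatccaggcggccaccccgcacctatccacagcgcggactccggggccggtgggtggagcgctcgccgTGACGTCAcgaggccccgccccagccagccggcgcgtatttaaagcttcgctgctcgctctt
Mdm2: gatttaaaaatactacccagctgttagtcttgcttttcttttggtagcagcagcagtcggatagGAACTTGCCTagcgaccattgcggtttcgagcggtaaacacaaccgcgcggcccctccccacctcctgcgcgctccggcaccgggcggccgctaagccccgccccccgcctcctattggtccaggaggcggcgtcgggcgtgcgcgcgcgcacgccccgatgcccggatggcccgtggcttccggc
The Ei24 half-site ends at the base before the annotated start, and the Plk2 element begins 62 bases before it.

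Short stretches around the half-sites of Aen and Polk, the called genes that rose and held one, and of Ccng1, which was not called, show how the sites differ. The sites lie at chr7:78895937-78895946 (plus strand), chr13:96519409-96519418 (minus strand) and chr11:40755462-40755471 (minus strand), with the half-site in capitals.
Aen: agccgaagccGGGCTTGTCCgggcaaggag
Polk: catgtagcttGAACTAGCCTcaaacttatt
Ccng1: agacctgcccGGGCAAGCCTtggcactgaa
Aen and Polk have more than 1 annotated start, and these sites belong to the window of one of them. A half-site thus stood before called and uncalled genes, and before genes that rose and one that fell.

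The upstream regulators of p53 and further p53 targets, taken from lists written with earlier results of these data known, were measured in the same fit. Of 24 upstream regulators, 1 was called higher and 1 lower, with a median log2 change of -0.03. The called share was 8.33%, beside 11.8% of all genes and 15% of genes above the trpnX controls. On the normalized values, groups did not overlap in 6 of the 24 (25%, beside 28.5% of all genes). Cdkn2a, the locus of the Mdm2 inhibitor ARF and the CDK inhibitor p16, gave 469, 490.3 and 472 units with the control vector and 576, 746 and 618 with the shRNA. All shRNA arrays were above all control arrays, with a log2 change of 0.40 (SE 0.071, limma adjusted p = 0.00983). Cdkn2a has 1 probe set annotated to it alone, and which of its products that probe set reads was not determined. Trp53bp1, the repair scaffold 53BP1, was lower by 0.15 (adjusted p = 0.0342), but held in 6 of 16 settings and was at -0.07 after centring on chromosome medians (adjusted p = 0.28). It was also lost without control replicate 2 (0.113) or 3 (0.102) or MKK4 shRNA replicate 1 (0.0968) or 2 (0.129). The damage kinase genes Atm (-0.02), Atr (-0.12), Chek1 (-0.15) and Chek2 (-0.03), the kinase gene Hipk2 (0.05) and the coactivator gene Ep300 (0.08) did not pass the test, the values being log2 changes. Among the 22 uncalled regulators, the groups were apart on the normalized values in Mapk8, Ppp1r13l, Trim24 and Daxx. On the deposited intensities the groups of Ppp1r13l, Trim24 and Daxx overlapped. Mapk8, the kinase JNK1 that MKK4 activates, gave 409, 399.9 and 406 units against 412, 494 and 539, a log2 change of 0.22 (limma adjusted p = 0.131). A dimmer Mapk8 probe set rose by 0.34 (limma adjusted p = 0.0214 over all single-gene probe sets), while its other 3 gave -0.19 to 0.14 and overlapped. Trim24, a ubiquitin ligase that targets p53, changed by -0.23 (limma adjusted p = 0.0988), the p53-binding inhibitor gene Ppp1r13l by 0.04 and the chaperone gene Daxx by -0.09.

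Of 30 further p53 target genes, 8 were called on their brightest probe sets (26.7%, beside 11.8% of all genes), 3 higher and 5 lower. Their median log2 change was -0.03. On the normalized values, groups did not overlap in 13 of them (43.3%, beside 28.5% of all genes). The list as a whole was not tested. Cdkn1a, the CDK inhibitor p21 and the best known arrest gene of p53, gave 801, 814 and 842 units against 781, 828 and 792. Those groups overlapped, with a log2 change of -0.05 and a 95% interval of -0.15 to 0.05 (limma adjusted p = 0.598), and Cdkn1a was not called in any of 16 settings. Gadd45a, a stress gene that binds the kinase MEKK4, gave 2048 ± 203 units with the control vector and 2818 ± 139 with the shRNA (SD, n = 3), a rise of 0.44 on the log2 scale (limma adjusted p = 0.00314). The mTORC1 inhibitor gene Ddit4 rose by 0.35 and the epoxide hydrolase gene Ephx1 by 0.29. Cd82, a tetraspanin membrane protein, gave 817, 911 and 874 units against 899, 814 and 882 on its brightest probe set, with overlap and a log2 change of -0.02. A dimmer Cd82 probe set gave 124, 116 and 94.8 units with the control vector and 429, 504 and 502 with the shRNA. Here the groups were far apart, with a log2 change of 1.94 (SE 0.10, limma adjusted p = 0.000108 over all single-gene probe sets), so the probe sets of Cd82 disagree. With probe sets averaged, 4 genes of this list were called higher.

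The lower genes of that list were Pmaip1, Xpc, Ddr1, Perp and Bid. Pmaip1, the BH3-only protein NOXA, gave 381, 328 and 362 units against 201, 237 and 285. Its groups did not overlap, with a log2 change of -0.57 (limma adjusted p = 0.0178), the largest in size among the brightest probe sets of these 3 lists. The call was lost without control replicate 1 (0.0771) or 3 (0.077) or MKK4 shRNA replicate 2 (0.0836). The excision repair gene Xpc fell by 0.38, the collagen receptor gene Ddr1 by 0.34, Perp, a desmosomal protein and death effector, by 0.29, and Bid, a BH3 protein cut by caspase-8, by 0.16. Gadd45a, Ddit4, Perp and Ddr1 were called in all 16 settings, Xpc in 15, Pmaip1 in 12, Ephx1 in 8 and Bid in 6. Ephx1 was lost when any 1 array was left out (adjusted p = 0.0525 without control replicate 2 to 0.111 without MKK4 shRNA replicate 2), and Bid without control replicate 1 (0.0741) or 2 (0.0935) or MKK4 shRNA replicate 1 (0.0746) or 2 (0.0992).

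**Figure D4:**
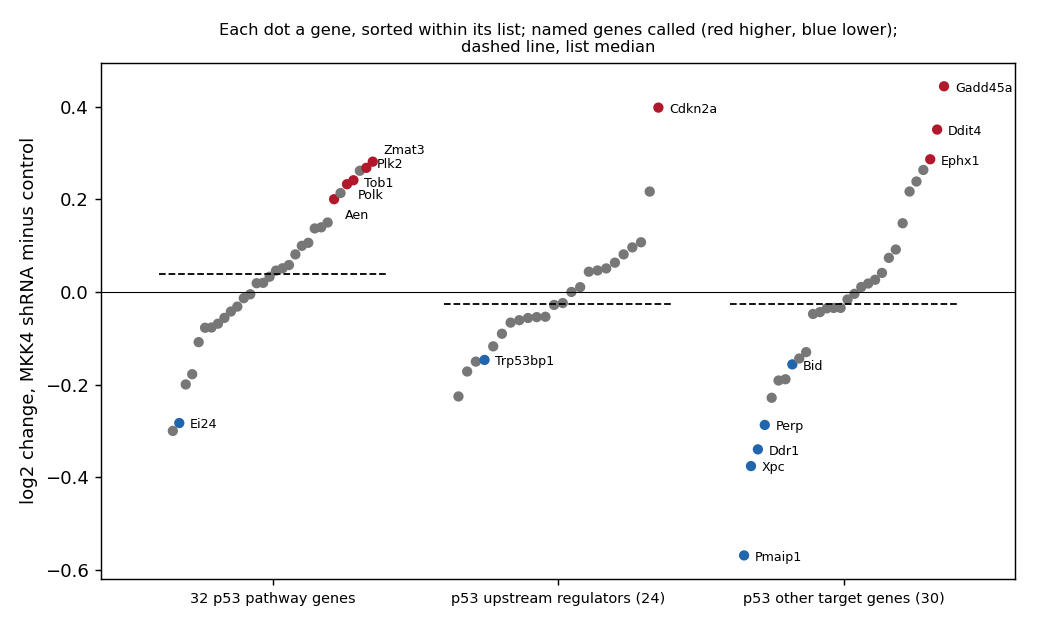
Log2 change (y axis, MKK4 shRNA minus control) of the brightest probe set of each gene in 3 lists (x axis: 32 p53 pathway genes, 24 upstream regulators, 30 other target genes), sorted within each list, with dashed lines for list medians. Called genes are named, red higher and blue lower; among these probe sets Pmaip1 is lowest at -0.57 and Gadd45a highest at 0.44, and the second Cd82 probe set, at 1.94, is not plotted.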

How the data were processed

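Biotin-labelled RNA of 6 cultures was read on 1-colour Affymetrix arrays, per the labels' protocols. On how the hairpin was delivered the labels differ: the series design speaks of retroviruses and the treatment protocol of transfection. A further part of the mouse genotype, shared by both groups, is not reported here. The deposited values are linear intensities, 1 for each of 45101 probe sets, with 1475 to 1633 values at exactly 1 per array; how the authors summarised, background-corrected and normalized them is not given in the sources used here. A pseudocount of 16 was added, log2 taken, and the arrays were quantile-normalized (limma 3.58.1, R 4.3.3). The platform annotation gives 1 gene for 34945 probe sets, several for 932 and none listed for 9160, and 64 control probe sets entered no test. Of the 18193 genes, 18031 were found in the reference table (GRCm38.p6) by Entrez number and took its symbol. The fit used limma's lmFit and eBayes, the prior variance following a trend, with group as the single term and Benjamini-Hochberg adjustment over all genes at 0.05; intervals are at 95%. The fit was tested on simulated data.

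The members and lists were chosen with earlier results of these data known. Values on each array are given for Map2k4, Mdm2, Mdm4, every called gene of the 32 and the 6 uncalled ones with the largest change, and up to 6 called genes by size, with Cdkn1a, are named from each further list; Bid, Ephx1, Cd82 and the uncalled upstream regulators are named beyond that rule, after their values were seen. Genes with both means at or below the brightest trpnX value are given no fold. Alternatives were the values as deposited, centred medians, pseudocounts of 1 and 64, leaving out dimmer genes, averaging probe sets, leaving out those that can match several transcripts, no trend, the replicate number as a block, chromosome centring, each probe set tested separately, and omission of each array; the 16 settings are these without the separate probe sets.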

Additional observations from a re-analysis of the deposited data

How the results depend on the processing

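Of 500 values of the 32 genes under alternative settings, 429 kept their direction and their side of the threshold, 35 called values lost the call, 6 gained one, and 29 values called under neither setting changed sign; 23 genes were called in no setting. Tob1 reversed to -0.17 with its probe sets averaged, where its dim probe set counts equally. The count of called genes over all genes, 2139, was 1127 with no trend in eBayes, 1206 under the replicate block, and ran from 1152 (without MKK4 shRNA replicate 2) to 1667 (without MKK4 shRNA replicate 1) when 1 array was left out. It was 1346 without control replicate 2, 1312 without control replicate 3 and 1257 without MKK4 shRNA replicate 3. The 5 genes called higher became 3 with the values as deposited, 3 with centred medians and 3 with a pseudocount of 64, 2 with probe sets averaged, 1 without a trend, and 2 to 3 when 1 array was left out. The 1 gene called lower became 2 with a pseudocount of 1, with probe sets averaged, without a trend and after chromosome centring, the addition being Dcxr in each, and 1 to 2 when 1 array was left out, the addition being Sfn. With the replicate block 2 genes were called higher, Plk2 and Tob1; replicates with the same number in the labels did not deviate together (r = -0.031, -0.006 and -0.114 across genes), so the numbers are not taken to pair the cultures. With 3 arrays per group and values near the trpnX controls, changes in Trp63, Trp73, Eda2r, Steap3, Cyfip2, Rprm and Trp53i11 could hardly be measured.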

Other observations

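Other genes named after p53 that stand in none of the lists gave 1 call among 5 measured, beside 11.8% of all genes. Trp53rka, annotated as a regulating kinase of p53, gave 225, 231 and 250.2 units with the control vector and 179, 204 and 189.7 with the shRNA. The groups did not overlap, with a log2 change of -0.30 (SE 0.075, limma adjusted p = 0.0397), and Trp53rkb, a gene of similar name, changed by -0.04. Both lie on chromosome 2, whose genes had a median log2 change of -0.07. Neither was run under the alternative settings, so how far the Trp53rka call holds was not tested. Trp53inp2, an autophagy cofactor, gave 98.0, 120.1 and 141 units against 84.6, 97.7 and 70.4, a log2 change of -0.44 that did not pass (limma adjusted p = 0.0941). Trp53i13 changed by 0.01, and Trp53tg5 lay within background at 12.7 and 13.8 units. These genes were picked by name after the tables were at hand.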
